A study of Mus musculus with 15 samples.

Results

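MC38, a mouse colon carcinoma line, was compared with and without forced expression of Ssbp4 in 7 libraries, chosen by their titles out of the 15 libraries of the series. The wild-type group held 4 libraries of unmodified MC38 cells. The overexpression group held 3 libraries of MC38 cells transduced with a retrovirus, pMSCV-IRES-EGFP, that carried murine Ssbp4 cDNA and the EGFP reporter. The remaining 8 libraries came from B16-F10 cells, stood in a separate table and were not used here. The labels name no MC38 group with the empty vector, so the effects of Ssbp4, of EGFP and of transduction cannot be told apart. They do not say whether the overexpressing cells were 1 clone or a pool, nor whether the libraries within a group were separate cultures. The p-values below rest on the spread among these 7 libraries, and that spread may be technical only.

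The tissue label reads melanoma for MC38 too, whereas the column names of the deposited table say colon adenocarcinoma. Of 9 melanocyte markers 6 stayed below 0.5 FPKM in every library, and Mlana was listed at 0 in all 7. Gpnmb, a lysosomal glycoprotein also made by other cells, stood at 74.4 FPKM in wild type and 76.8 FPKM in overexpressing cells. Of 13 colon epithelial markers 9 stayed below 0.5 FPKM in every library, and the intestinal transcription factors Cdx1 and Cdx2 were listed at 0 in all 7. Leukocyte markers were near 0 as well, with 11 of 13 below 0.5 FPKM throughout.

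Ssbp4 belongs to a small family of proteins first described as binding single-stranded DNA. Family members bind the cofactor Ldb1, which joins LIM-domain transcription factors into larger complexes, and they are known to slow the degradation of Ldb1. The genes described here are grouped by what their products do: the stress-responsive supply of amino acids, the building of ribosomes, protein folding in the endoplasmic reticulum, the response to low oxygen, the extracellular matrix, epithelial identity and signalling.

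Transcript levels are given as FPKM, a fragment density scaled by transcript length and by the size of the library. Ssbp4 stood at 13.2, 17.3, 17.0 and 17.6 FPKM in the 4 wild-type libraries and at 581, 559 and 462 FPKM in the 3 overexpressing libraries. The groups were far apart, and the difference was 4.95 on the log2(FPKM + 1) scale (SE 0.10, limma adjusted p = 1.12e-09). An exact two-sided permutation test over the libraries gave p = 0.0571, the smallest that 4 against 3 libraries allow. The value can hold fragments of the endogenous gene and of the vector together.

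Of 54343 gene entries 10748 had a mean of at least 1 FPKM over the 7 libraries and were tested. With limma, 5107 genes were called (47.5% of those tested, Benjamini-Hochberg adjusted p under 0.05), 2567 higher (23.9%) and 2540 lower (23.6%) in overexpressing cells. A difference of at least 2-fold on the log2(FPKM + 1) scale was reached by 220 genes (2.05%), 176 higher (1.64%) and 44 lower (0.409%). In 50.6% of tested genes the 2 groups of libraries did not overlap. The median absolute difference between libraries was 0.066 to 0.097 within groups and 0.166 to 0.184 between groups on the log2 scale, so most called differences were small and stood against a low spread. Estimated depth was 32.6 to 38.5 M fragments per library. Because so many of all tested genes were called in each direction, the count for every gene list below is to be read against those background shares. The lists were chosen with earlier results of these data known, so a share above the background describes the list and is not a test. A low gene could pass the filter through its higher group only, which was so for 263 tested genes with 1 group mean below 1 FPKM. Among genes named below these included Crabp1, Asb4, Rgs5, Enpp2, Scara5, Gsta2 and Hba-a1, each with a wild-type mean below 1 FPKM.

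**Figure D1:**
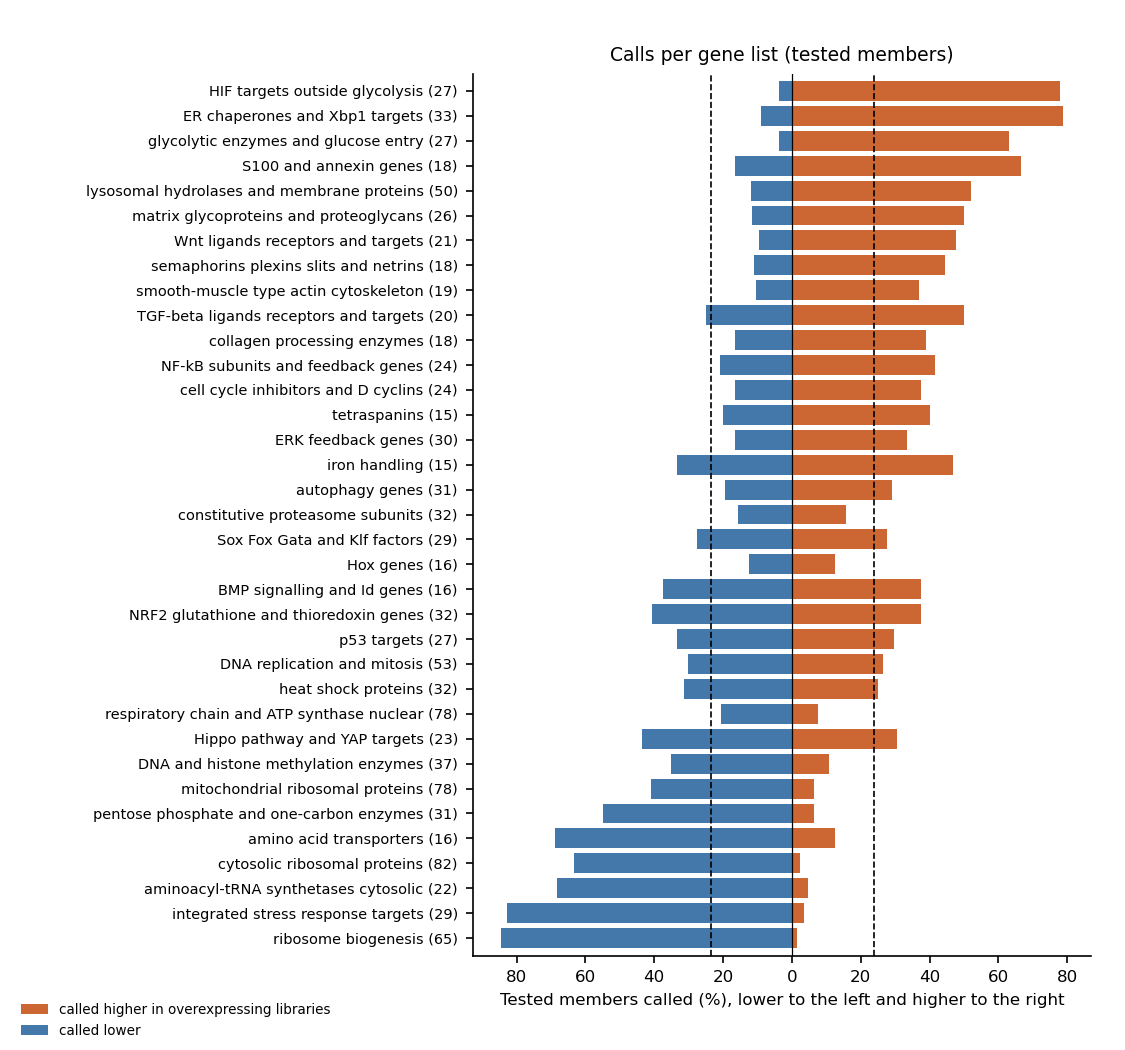
Share of tested members of each gene list called higher (orange, right) or lower (blue, left) in Ssbp4-overexpressing MC38 cells, for lists with at least 15 tested members (number in brackets). Dashed lines mark the shares over all tested genes, 23.9% higher and 23.6% lower; ribosome biogenesis and the integrated stress response lie at the lower end and HIF targets and ER chaperones at the upper end.

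The integrated stress response is a programme in which cells short of amino acids, or with misfolded protein, translate the transcription factor Atf4. Atf4 then raises genes for amino acid synthesis and uptake, for tRNA charging and for the return to normal translation. Of 32 listed targets 29 were tested, and 24 were lower (82.8%) and 1 higher, with a median difference of -0.36, against -0.01 over all tested genes. Many of these targets carry a composite C/EBP-ATF element, and 7 letters of it, TTGCATC, were searched on both strands from 250 bases before to 50 bases after the gene start. The 7 members that held it are shown because they include genes that fell and genes that did not. Sequences are from RefSeq on GRCm38.p6, 5′ to 3′ in the direction of the gene, with the motif or its reverse complement in capitals.
Atf3: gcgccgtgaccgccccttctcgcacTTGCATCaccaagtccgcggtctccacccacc
Chac1: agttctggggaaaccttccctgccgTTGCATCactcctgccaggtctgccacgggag
Fgf21: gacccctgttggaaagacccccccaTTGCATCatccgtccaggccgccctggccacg
Pycr1: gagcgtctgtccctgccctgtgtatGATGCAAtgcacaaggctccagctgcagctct
Slc7a11: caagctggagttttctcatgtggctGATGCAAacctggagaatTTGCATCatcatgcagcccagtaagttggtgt
Nupr1: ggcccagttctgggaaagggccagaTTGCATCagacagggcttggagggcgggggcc
Vldlr: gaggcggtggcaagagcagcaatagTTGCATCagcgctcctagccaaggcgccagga
The stretches lie at chr1:191183412-191183468 on the minus strand for Atf3, chr2:119351024-119351080 on the plus strand for Chac1, chr7:45615598-45615654 on the minus strand for Fgf21, chr11:120643819-120643875 on the minus strand for Pycr1. The others lie at chr3:50443629-50443703 on the minus strand for Slc7a11, chr7:126625549-126625605 on the minus strand for Nupr1, and chr19:27216795-27216851 on the plus strand for Vldlr.

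The motif stood in 7 of the 25 tested members with a RefSeq promoter (28%), against 190 of 8394 tested genes with one (2.26%). Among all tested genes it was held by 2.39% of those that were lower and by 2.48% of those that were higher. Atf3, a stress-induced transcription factor, fell from 2.46, 2.33, 2.57 and 3.27 FPKM to 0.653, 0.999 and 1.07 FPKM. Chac1, which degrades glutathione, fell from 42.9, 49.4, 46.2 and 46.9 FPKM to 32.1, 27.0 and 30.7 FPKM. Fgf21, a secreted metabolic hormone, and Pycr1, a proline-synthesis enzyme, also fell, by 0.54 and 0.49 on the log2(FPKM + 1) scale. In contrast, Nupr1, a chromatin-associated stress protein, was not called, with group means of 54.3 and 53.6 FPKM. Vldlr, a lipoprotein receptor, was not called either, at means of 23.4 and 23.6 FPKM. The motif was thus present in promoters of members that fell and of members that were not called. Slc7a11, the cystine transporter that holds the motif on both strands, was called lower by 0.23, and that call is lost without overexpression library 1 or 3.

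Trib3, a pseudokinase that dampens Atf4 and Akt signalling, stood at 134, 144, 131 and 142 FPKM in wild type and at 66.7, 64.2 and 68.8 FPKM in overexpressing cells (log2 difference -1.04, SE 0.04, limma adjusted p = 4.25e-08). Ddit3, the pro-death transcription factor CHOP, stood at 100, 111, 99.8 and 102 FPKM against 54.0, 47.9 and 50.2 FPKM. Ppp1r15a, the phosphatase subunit GADD34 that restores translation, stood at 66.5, 80.2, 72.6 and 81.1 FPKM against 37.7, 35.3 and 35.8 FPKM. For these 3 genes every overexpressing library lay below every wild-type library, by a wide margin. Atf4 mRNA, named for its role after its values were seen, fell less, from 420 to 461 FPKM to 385 to 394 FPKM (log2 difference -0.18, SE 0.04, limma adjusted p = 0.00245). Ddit4, an mTORC1 inhibitor that also belongs to the HIF target list, was the 1 member that rose, from 16.4 to 19.4 FPKM to 26.9 to 28.1 FPKM. The most abundant members not called were Eif4ebp1, a repressor of translation initiation, Atf5 and Nupr1, but Eif4ebp1 was called lower without wild-type library 1 or without overexpression library 1.

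Genes that supply amino acids and load them onto tRNA were called lower more often than higher. Of 22 tested cytosolic aminoacyl-tRNA synthetase genes 15 were lower (68.2%) and 1 was higher. Wars, the tryptophan enzyme, fell from 64.5, 66.7, 63.7 and 65.2 FPKM to 36.6, 37.6 and 36.2 FPKM (log2 difference -0.80, SE 0.03, limma adjusted p = 4.82e-08). Eprs, Farsb and Rars, for glutamate with proline, phenylalanine and arginine, fell by 0.44, 0.38 and 0.37 on the log2(FPKM + 1) scale. Kars, Vars and Hars were the most abundant enzymes not called. The 1 higher member was Dars, at group means of 44.2 and 48.7 FPKM, and no member was called higher without overexpression library 2 or without library 3.

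Of 16 tested amino acid transporters 11 were lower (68.75%) and 2 higher. Slc1a5, the glutamine importer, fell from 58.5, 59.4, 62.5 and 64.2 FPKM to 34.7, 37.5 and 33.5 FPKM. Slc7a5, the leucine exchanger, fell from a mean of 147 to 106 FPKM, and the glutamine carriers Slc38a1 and Slc38a7 fell by 0.44 and 0.60 on the log2(FPKM + 1) scale. Slc16a10, an aromatic amino acid transporter, and Slc38a10 rose by 0.37 and 0.36. Among 31 pentose phosphate and one-carbon enzymes 17 were lower (54.8%) and 2 higher, or 1 higher without wild-type library 1 or 3 or without any single overexpression library. Phgdh and Psph, the first and last steps of serine synthesis, fell from means of 513 and 63.8 FPKM to 393 and 47.3 FPKM. Gart, a purine-synthesis enzyme, fell from 99.6 to 102 FPKM to 72.5 to 76.5 FPKM, with no overlap. Pgd of the pentose phosphate pathway rose by 0.19, whereas G6pdx, which feeds that pathway, was not called at 37.5 and 35.0 FPKM, but was called lower without wild-type library 3. Several of these genes stand on the stress response list as well, so the lists are not separate observations.

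Myc is a transcription factor known to raise ribosome production, and it dimerises with Max. Myc stood at 163, 190, 186 and 191 FPKM in wild type and at 95.1, 96.6 and 91.2 FPKM in overexpressing cells (log2 difference -0.94, SE 0.05, limma adjusted p = 5.07e-07). Mycl, a low-abundance relative, fell from 1.33 to 1.56 FPKM to 0.523 to 0.654 FPKM. Max itself was not called, at 45.4 and 45.2 FPKM. Mlx and Mxd4, which belong to the same dimer network, rose by 0.34 and 0.33. Of the 10 tested network genes 4 were lower and 2 higher. Of the lower calls 2 were left without wild-type library 2, without overexpression library 1 or without overexpression library 3. Mycl was below the filter without wild-type library 1 or 2.

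Ribosome biogenesis factors formed 1 of the lists with the highest share of lower calls: of 65 tested members 55 were lower (84.6%) and 1 higher, with a median difference of -0.29. Nop56, a core protein of the small nucleolar particles that methylate ribosomal RNA, fell from 250, 252, 244 and 243 FPKM to 174, 175 and 174 FPKM (log2 difference -0.50, SE 0.03, limma adjusted p = 4.93e-07). Nat10, an RNA acetyltransferase, fell from 28.5 to 30.3 FPKM to 19.12 to 20.72 FPKM. Wdr74 and Noc4l, assembly factors of the large and the small subunit, fell by 0.52 and 0.51. Pno1, Brix1 and Nop10 were the most abundant members not called, and Nop10 was called lower without overexpression library 3. The single higher call, Ddx10 at 0.12, is lost without wild-type library 1 or 2 or any single overexpression library. The E-box CACGTG, a Myc binding sequence, stood in 11 of 57 members with a RefSeq promoter (19.3%), against 12.2% of all tested genes with one, 13.45% of those that were lower and 11.1% of those that were higher.

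Cytosolic ribosomal protein genes were lower in 52 of 82 cases (63.4%) and higher in 2, but the differences were smaller, with a median of -0.15. Rpl35a fell from 1229, 1131, 1122 and 1123 FPKM to 833, 827 and 910 FPKM, and Rpl13a fell from 671 to 701 FPKM to 523 to 551 FPKM. The highly expressed Rplp1, Rps2 and Rps18 were not called. The 2 higher calls, Rpl37a and Rpl36a, are both lost without wild-type library 1 or 3 or without overexpression library 3, and that of Rpl36a also without wild-type library 2 or overexpression library 1. Ribosomal protein genes have many processed pseudogenes, and how the authors assigned shared reads is not given in the sources used here. Mitochondrial ribosomal protein genes were lower in 32 of 78 cases (41.0%) and higher in 5. Mrpl24 fell from a mean of 35.0 to 25.2 FPKM, and Mrpl18 rose from 49.3 to 60.5 FPKM. By comparison, nuclear-encoded respiratory chain and ATP synthase genes had a smaller share of calls than all tested genes, with 16 lower and 6 higher of 78 (28.2% called in all). Cox6a2, the muscle-type subunit of cytochrome oxidase, was the largest of these differences and fell from 94.8, 128, 108 and 125 FPKM to 29.8, 27.8 and 30.3 FPKM.

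**Figure D2:**
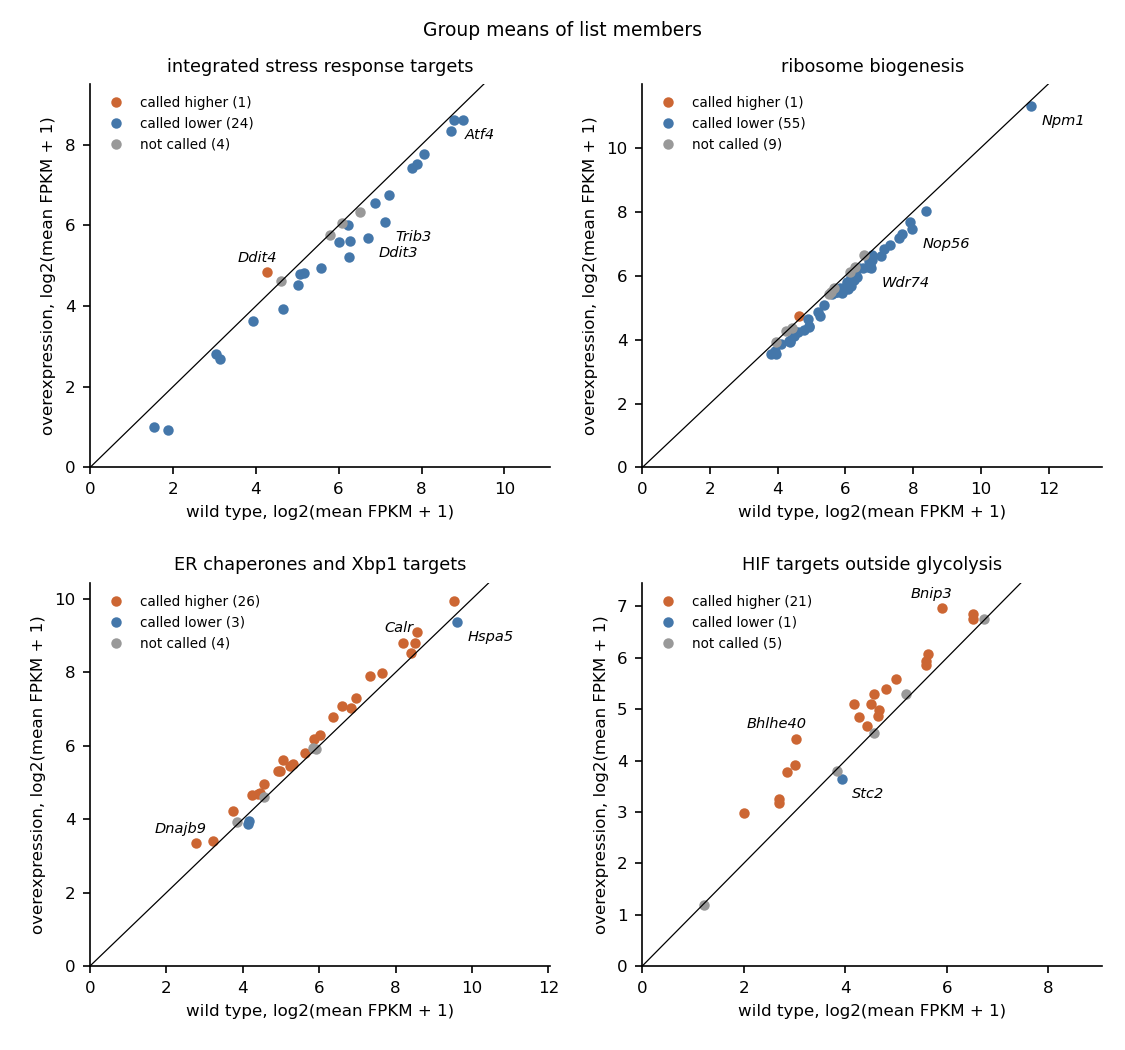
Mean level of each tested member in wild-type (horizontal) and Ssbp4-overexpressing (vertical) MC38 cells, as log2(mean FPKM + 1), for 4 gene lists; each point is a gene and the line marks equal levels. Stress response and ribosome biogenesis genes lie mostly below the line (24 of 29 and 55 of 65 called lower), and ER chaperones and HIF targets mostly above it (26 of 33 and 21 of 27 called higher).

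The endoplasmic reticulum folds secreted and membrane proteins, and its chaperones and degradation factors are known targets of the transcription factors Xbp1 and Atf6. Unlike the stress response genes above, this list moved upward: of 33 tested members 26 were higher (78.8%) and 3 lower, with a median difference of 0.31. Calr, the calcium-binding chaperone calreticulin, stood at 301, 293, 293 and 288 FPKM in wild type and at 444, 448 and 454 FPKM in overexpressing cells (log2 difference 0.61, SE 0.03, limma adjusted p = 1.63e-07). Pdia6, a disulfide isomerase, rose from a mean of 161 to 238 FPKM, and P4hb, an isomerase that is also a prolyl hydroxylase subunit, rose from 366 to 380 FPKM to 532 to 558 FPKM. Dnajb9, a cochaperone and a standard readout of Xbp1, rose from 5.17 to 6.42 FPKM to 9.01 to 9.32 FPKM. Selenos, a degradation factor, rose by 0.57. The abundant master chaperone Hspa5 (BiP) went the other way, from 814, 757, 777 and 778 FPKM to 657, 654 and 668 FPKM (log2 difference -0.24, SE 0.04, limma adjusted p = 0.000288). Sel1l, a scaffold of the degradation complex, fell by 0.28. Xbp1 mRNA, named for its role after its values were seen, rose from 53.2 to 60.5 FPKM to 69.4 to 72.6 FPKM. The table does not separate spliced from unspliced Xbp1. The letters CCACG, part of the ER stress element, stood in 24 of 28 members with a promoter (85.7%), against 53.75% of all tested genes with one. It stood in 20 of 24 higher members and in both lower members with a promoter, and in 52.8% of all tested genes that were higher and 57.1% of those that were lower.

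Cytosolic and mitochondrial heat shock proteins were split, with 8 of 32 higher and 10 lower. Cryab, a small heat shock protein, rose from a mean of 5.23 to 18.1 FPKM, and the cochaperone Dnajb4 rose from 22.5 to 43.2 FPKM. The chaperonin subunits Cct2 and Cct8 and the stress factor Hsf1 fell by 0.31, 0.26 and 0.31. The abundant Hspa8 and Hsp90ab1 were not called. Constitutive proteasome subunits had few calls, 5 higher and 5 lower of 32 (31.25% called in all). Of them 3 were higher without wild-type library 2, 3 or 4 or without overexpression library 3, and 3 were lower without overexpression library 2.

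HIF is a transcription factor stabilised at low oxygen that raises glycolysis, mitophagy and blood vessel growth. Of 27 tested HIF targets outside glycolysis 21 were higher (77.8%) and 1 lower, with a median difference of 0.44. Bhlhe40, a transcriptional repressor, stood at 6.71, 7.70, 7.70 and 6.67 FPKM in wild type and at 21.3, 19.2 and 21.0 FPKM in overexpressing cells (log2 difference 1.39, SE 0.07, limma adjusted p = 1.12e-07). Bnip3, a mitophagy receptor, rose from 60.4, 56.8, 56.0 and 60.6 FPKM to 120, 125 and 126 FPKM. Ankrd37, a compact HIF target, and Gbe1, the glycogen branching enzyme, rose from means of 3.03 and 6.25 FPKM to 6.87 and 12.7 FPKM. Stc2, a secreted glycoprotein that is also a stress response target, fell from 14.3 to 11.4 FPKM. Hif1a mRNA was not called, at 35.6 and 38.1 FPKM, nor was Ero1a, an oxidase of the endoplasmic reticulum. The labels give a standard incubator for the cultures and no oxygen treatment.

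Among 27 tested glycolytic and glucose entry genes 17 were higher (63.0%) and 1 lower. Hk1, a hexokinase, rose from 16.7 to 18.0 FPKM to 26.1 to 30.0 FPKM, and Pfkp, a phosphofructokinase, rose from a mean of 7.83 to 12.8 FPKM. Pdk1, which closes pyruvate entry into mitochondria, rose from 23.9 to 25.3 FPKM to 36.8 to 38.7 FPKM. Slc16a3, a lactate exporter, rose by 0.47, whereas the lactate carrier Slc16a1 was not called. Eno1, the most abundant member not called, stood at 1203 and 1194 FPKM. The regulator Pfkfb3 fell by 0.30.

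Lysosomal hydrolases and membrane proteins were higher in 26 of 50 cases (52.0%) and lower in 6, of which 3 were called lower without overexpression library 2. The cathepsin Ctsb stood at 110, 116, 113 and 112 FPKM in wild type and at 164, 164 and 165 FPKM in overexpressing cells. Naglu and Ids, which degrade heparan sulfate, rose by 0.59 and 0.57. Ctsa, a protective carboxypeptidase, and Scarb2, a receptor that carries glucocerebrosidase, fell by 0.40 and 0.32. Autophagy genes were closer to the background, with 9 higher and 6 lower of 31. Sqstm1, the cargo receptor p62, fell from 492, 557, 545 and 573 FPKM to 361, 335 and 323 FPKM.

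Several genes of the collagen matrix rose. Of 11 tested collagen chains 6 were higher and 2 lower. Col3a1, a fibril collagen, stood at 100, 104, 93.1 and 98.1 FPKM in wild type and at 277, 272 and 289 FPKM in overexpressing cells (log2 difference 1.49, SE 0.04, limma adjusted p = 3.23e-09). Col6a1 and Col6a2, chains of the beaded collagen VI, rose from means of 25.3 and 4.71 FPKM to 66.1 and 15.9 FPKM, while their partner Col6a3 was not called, at 34.1 and 37.4 FPKM. Col5a2 rose from 7.06 to 13.6 FPKM. The basement membrane chain Col4a1 and the anchoring fibril chain Col7a1 fell by 0.26 and 0.30. Of 18 collagen processing enzymes 7 were higher (38.9%) and 3 lower (16.7%), or 1 lower without overexpression library 2. Their median difference was -0.02, against -0.01 over all tested genes, so this list as a whole showed no net shift. The higher members included the hydroxylases P4ha2 and Plod2, at 0.92 and 0.73, both of which stand on the HIF list too.

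Among 26 tested matrix glycoproteins and proteoglycans 13 were higher and 3 lower, or 5 lower without wild-type library 3. Dcn, the collagen-binding proteoglycan decorin, stood at 62.7, 65.2, 69.0 and 65.4 FPKM in wild type and at 322, 317 and 320 FPKM in overexpressing cells (log2 difference 2.27, SE 0.04, limma adjusted p = 2.91e-10). Its relative Lum rose from 0.117 to 0.296 FPKM to 1.95 to 2.59 FPKM. Fbn1, the microfibril protein fibrillin, rose from 21.50, 19.15, 15.81 and 16.12 FPKM to 59.0, 54.6 and 55.7 FPKM. Spp1, the phosphoprotein osteopontin, rose from 40.7 to 43.6 FPKM to 103 to 106 FPKM. Fn1, Thbs2 and Efemp2 were abundant and not called, though Fn1 was called higher by 0.33 without wild-type library 1 (limma adjusted p = 0.00607) and by 0.29 without wild-type library 2, and Sparc and Gpc6 fell by 0.19 and 0.45. The changes were therefore spread unevenly over the matrix rather than common to all its genes.

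Receptors and proteases that act on the matrix were also altered. Of 9 tested integrin subunits 5 were higher and 2 lower, or 1 lower without overexpression library 1. Itga2, a collagen-binding subunit, rose from 0.841 to 1.05 FPKM to 3.59 to 4.29 FPKM, and Itga3, a laminin-binding subunit, fell from 4.97 to 6.09 FPKM to 2.39 to 2.56 FPKM. The shared partner Itgb1 stood at 164 FPKM in both groups and was not called. Adam19, a membrane-anchored protease, rose from 2.11, 1.69, 1.92 and 1.66 FPKM to 19.06, 19.99 and 20.003 FPKM, and of 8 tested ADAM and ADAMTS genes 6 were higher and the other 2 were not called. Mmp9 and Mmp14, a secreted and a membrane-bound metalloprotease, rose from means of 8.54 and 86.3 FPKM to 17.4 and 121 FPKM. The urokinase receptor Plaur fell by 0.50, and the plasminogen activator Plat rose by 0.71.

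Caveolae are small pits of the plasma membrane, and connexins form channels between cells. Of 10 tested genes of these 2 families 8 were higher and the other 2, Cavin2 and Gjc1, were not called, though Cavin2 was called lower without overexpression library 3. Cav1 stood at 270, 268, 281 and 269 FPKM in wild type and at 353, 362 and 375 FPKM in overexpressing cells, and Cav2 rose from 37.2 to 41.3 FPKM to 62.1 to 65.2 FPKM. The coat proteins Cavin1 and Cavin3 and the connexin Gja1 rose by 0.49, 0.51 and 0.43. Of 18 S100 and annexin genes, which encode calcium-binding proteins, 12 were higher (66.7%) and 3 lower. S100a4 rose from 596 to 635 FPKM to 1062 to 1151 FPKM and Anxa1 rose from 687 to 703 FPKM to 1106 to 1153 FPKM, whereas Anxa3 fell from 159 to 169 FPKM to 87.7 to 88.8 FPKM.

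Transcription factors of mesenchymal cells did not move as 1 block. Of 12 tested members 6 were higher and 3 lower. Prrx1, a limb mesenchyme homeobox factor, rose from 40.7, 39.0, 42.7 and 39.8 FPKM to 66.5, 66.8 and 64.1 FPKM, and Prrx2 rose from 1.03 to 2.63 FPKM to 3.43 to 4.24 FPKM. Snai1 rose from a mean of 17.8 to 23.7 FPKM. Its relative Snai2, a repressor of epithelial genes, fell from 13.9, 13.9, 15.7 and 13.8 FPKM to 5.27, 4.32 and 5.04 FPKM (log2 difference -1.39, SE 0.07, limma adjusted p = 1.84e-07). Zeb2 and Cdh2 fell by 0.30 each, and Twist1 and Twist2 were not called. Vim, the intermediate filament protein vimentin, rose by 0.22.

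Epithelial genes were low in wild-type MC38, and among those tested Krt18 and Cdsn fell whereas Krt8 rose. Of 5 tested genes on the tight junction and desmosome list 4 were lower and 1 was not called. Cgnl1, a junction gene outside that list, rose by 1.78 on the log2(FPKM + 1) scale. Krt18 stood at 2.64, 3.32, 3.43 and 3.54 FPKM in wild type and at 0, 0.020 and 0.162 FPKM in overexpressing cells (log2 difference -1.99, SE 0.10, limma adjusted p = 1.55e-07). Its filament partner Krt8 went the other way, from 2.74, 3.74, 2.99 and 3.43 FPKM to 10.7, 9.03 and 8.65 FPKM. Cdsn, the corneodesmosin gene of epidermal cell contacts, fell from 6.91, 8.23, 8.26 and 8.38 FPKM to 0.639, 0.482 and 0.348 FPKM. Both keratins have processed pseudogenes, so their values are uncertain where reads were shared. The adhesion gene Epcam was below the filter, at 0.878, 0.658, 0.797 and 1.05 FPKM in wild type and listed at 0 in all 3 overexpressing libraries. Cdh1, the epithelial cadherin, was also below the filter, at 0.271 to 0.360 FPKM against 0.016 to 0.066 FPKM. The claudin Cldn4 was at 0.176 to 0.370 FPKM in wild type and listed at 0 in all overexpressing libraries, and Cldn7 was at 0.079 to 0.326 FPKM against 0 to 0.044 FPKM. The tight junction gene Cldn12, which was tested, fell by 0.45.

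**Figure D3:**
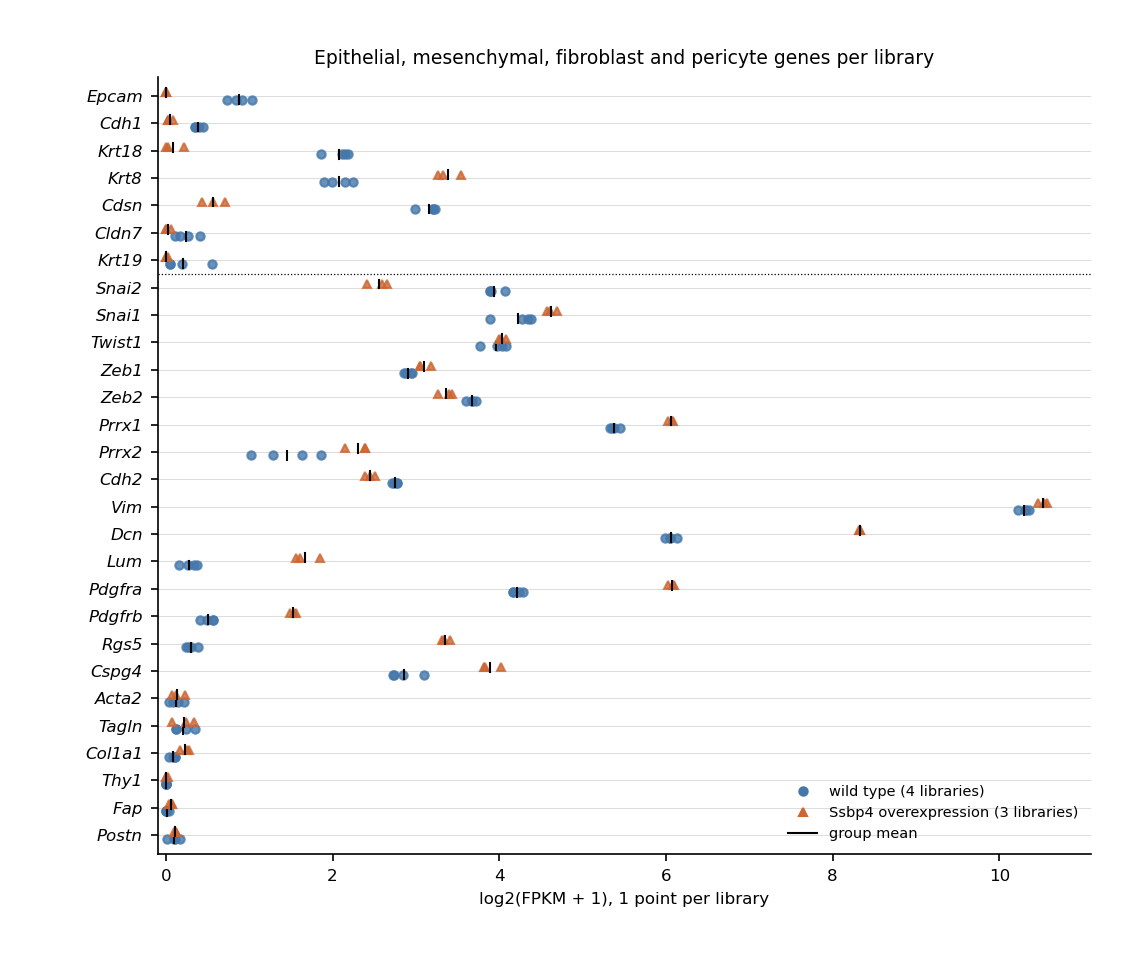
Level of epithelial genes (above the dotted line) and of mesenchymal, fibroblast and pericyte genes (below it) in each library, as log2(FPKM + 1); circles are the 4 wild-type and triangles the 3 Ssbp4-overexpressing libraries, and bars are group means. Krt18 and Krt8 separate in opposite directions, Dcn and Pdgfra are higher in all 3 overexpressing libraries, and Acta2, Thy1, Fap and Postn stay near 0 in all 7.

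Several of the genes that rose are used as markers of fibroblasts and pericytes, and the whole marker lists are given for that reason. The 10 fibroblast markers summed to 82.5 to 88.0 FPKM in wild type and 384.5 to 392.6 FPKM in overexpressing libraries, and most of each sum was Dcn and Pdgfra. Of the 10, 3 (Dcn, Pdgfra and Lum) passed the filter, Lum through its higher group only. Thy1 was listed at 0 in 6 of 7 libraries, Fap and Postn reached at most 0.053 and 0.121 FPKM, and Col1a1 was 0.026 to 0.083 FPKM in wild type and 0.126 to 0.211 FPKM in overexpressing cells. The 11 pericyte and smooth muscle markers summed to 6.67 to 8.72 FPKM and 25.01 to 26.37 FPKM, and 3 of 11 (Rgs5, Cspg4 and Pdgfrb) passed the filter. Rgs5 and Pdgfrb passed it through the overexpressing group only, with wild-type means below 1 FPKM. Kcnj8 and Abcc9 were listed at 0 in all 7 libraries, and Acta2 stayed at 0.026 to 0.169 FPKM. Of 9 endothelial markers 8 stayed below 0.5 FPKM in every library. The part of other cells in these results was not tested. In bulk RNA a change in the share of cells and a change per cell cannot be told apart.

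Receptors for platelet-derived growth factor rose. Pdgfra stood at 18.6, 17.0, 17.8 and 17.0 FPKM in wild type and at 67.2, 64.4 and 66.8 FPKM in overexpressing cells (log2 difference 1.85, SE 0.04, limma adjusted p = 1.15e-09). Pdgfrb, much lower, rose from 0.329 to 0.482 FPKM to 1.80 to 1.95 FPKM. Of 12 tested genes of the PDGF, VEGF and KIT families 8 were higher and 2 lower. The ligands Pdgfc, Vegfa, Vegfc and Vegfd and the coreceptors Nrp1 and Nrp2 rose by 0.35 to 0.76, and the ligand Pdgfa was not called. The macrophage growth factor Csf1 fell from 84.6 to 91.2 FPKM to 51.3 to 53.5 FPKM, and Kitl fell by 0.32.

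Retinoic acid is made from vitamin A inside cells and acts on nuclear receptors. Genes at several steps of this route changed: of 9 tested 5 were higher and 2 lower. The vitamin A importer Stra6 rose from 0.439 to 0.672 FPKM to 3.25 to 3.92 FPKM. The reductase Rdh11 rose from a mean of 16.5 to 27.3 FPKM. Crabp1, which binds retinoic acid in the cytoplasm, stood at 0.670, 1.14, 0.542 and 0.802 FPKM in wild type and at 34.6, 33.5 and 31.2 FPKM in overexpressing cells (log2 difference 4.26, SE 0.10, limma adjusted p = 1.15e-09), the widest difference after Ssbp4 among the genes named by size. Of the receptors Rarg rose by 0.47, Rxra and Rxrb fell by 0.25 and 0.30, and Rara was not called. Crabp1 and Stra6, 2 of the 5 higher members, passed the filter through the overexpressing group only, with wild-type means below 1 FPKM.

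Lysophosphatidic acid is a lipid signal made outside the cell by autotaxin, the product of Enpp2. Enpp2 stood at 0.853, 0.664, 0.794 and 0.859 FPKM in wild type and at 13.1, 13.7 and 12.4 FPKM in overexpressing cells. Its receptor Lpar1 rose from 25.04 to 26.22 FPKM to 54.9 to 56.4 FPKM, and Plpp3, a phosphatase that removes the lipid, rose from 2.82 to 2.92 FPKM to 10.57 to 11.01 FPKM. These genes were picked among the higher members, and Enpp2 passed the filter through its overexpressing group only. All 8 tested genes of lysophospholipid signalling were called, 6 higher and 2 lower, with a lowest difference of -0.37. When single libraries were left out 4 to 6 were higher. Only 1 was lower without wild-type library 1 or 2 or without overexpression library 2 or 3. Regulators of G protein signalling shorten the signal of such receptors, and 4 of 9 tested members were higher and 2 lower. Rgs5 stood at 0.230, 0.185, 0.198 and 0.307 FPKM in wild type and at 8.90, 9.09 and 9.59 FPKM in overexpressing cells. Rgs17, Rgs3 and Rgs20 rose from means of 5.29, 3.75 and 3.54 FPKM to 14.1, 7.63 and 4.89 FPKM, and Rgs16 and Rgs19 fell by 0.35 and 0.20.

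Of 26 listed neuropeptide and granin genes 3 reached the filter, and 2 of them were higher. Penk, the precursor of the opioid enkephalins, stood at 4.08, 4.68, 3.32 and 3.70 FPKM in wild type and at 55.8, 53.6 and 53.4 FPKM in overexpressing cells (log2 difference 3.49, SE 0.08, limma adjusted p = 1.15e-09). Calcb, a calcitonin gene-related peptide, rose from 0.030 to 0.217 FPKM to 2.45 to 2.56 FPKM. Vip, the vasoactive intestinal peptide, was below the filter at 0 to 0.114 FPKM in wild type and 1.82 to 2.14 FPKM in overexpressing cells. The third tested member, Cpe, a processing carboxypeptidase, was not called. Without any single overexpression library Calcb was below the filter and 1 member was higher.

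BMP signalling genes were split, with 6 higher and 6 lower of 16. The ligand Bmp2 stood at 0.763, 0.969, 1.00 and 0.741 FPKM in wild type and at 10.0, 7.87 and 7.91 FPKM in overexpressing cells (log2 difference 2.36, SE 0.10, limma adjusted p = 4.12e-08). The inhibitory Smad gene Smad7 and the BMP target Id3, an inhibitor of helix-loop-helix factors, fell by 0.37 and 0.33, and Id1 was not called. The antagonist Grem1 and the receptor Acvr2a fell by 0.55 and 0.53, and the secreted Fstl1 rose from a mean of 67.5 to 119 FPKM. Within the TGF-beta family 10 of 20 tested genes were higher and 5 lower. The ligand Tgfb3 rose from 6.21 to 6.78 FPKM to 15.7 to 16.8 FPKM, the coreceptor Tgfbr3 rose from a mean of 12.2 to 26.7 FPKM, and the latent binding protein Ltbp4 fell from 15.9 to 9.07 FPKM.

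Wnt genes were higher in 10 of 21 cases (47.6%) and lower in 2. The ligand Wnt5a stood at 40.7, 39.2, 40.7 and 40.2 FPKM in wild type and at 84.1, 82.8 and 80.4 FPKM in overexpressing cells. The extracellular antagonists Apcdd1 and Dkk2 rose from means of 5.00 and 2.21 FPKM to 22.4 and 8.99 FPKM, and the nuclear effector Lef1 fell from 1.40 to 0.684 FPKM. Gas1, a Hedgehog coreceptor, rose from 12.4 to 26.1 FPKM, while the pathway target Gli1 and the transducer Smo were not called. Targets and parts of the Hippo pathway were lower in 10 of 23 cases (43.5%) and higher in 7. Ankrd1, a standard YAP target, fell from 50.7, 50.3, 49.0 and 50.7 FPKM to 28.0, 27.6 and 27.9 FPKM, and Vgll3 fell from 14.2 to 15.7 FPKM to 8.33 to 9.91 FPKM. The YAP relative Wwtr1 (TAZ) and its DNA-binding partner Tead4 rose by 0.42 and 0.52, so the named members of this list moved in both directions. Of 18 tested axon guidance genes 8 were higher and 2 lower, led by Sema7a, Ntn1 and Plxna2, which rose from means of 3.90, 4.52 and 2.40 FPKM to 12.6, 12.8 and 6.77 FPKM.

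Other receptor families held calls in both directions. Efnb2, a membrane-bound ligand of Eph receptors, stood at 5.57, 5.36, 5.53 and 5.15 FPKM in wild type and at 13.2, 13.4 and 12.2 FPKM in overexpressing cells (log2 difference 1.12, SE 0.05, limma adjusted p = 1.35e-07), and of 11 tested ephrin and Eph genes 4 were higher and 3 lower. In the EGF family 2 of 7 tested genes were higher and 3 lower. The receptors Egfr and Erbb3 rose from means of 1.67 and 1.38 FPKM to 2.79 and 2.68 FPKM, whereas the ligands Areg, Nrg1 and Ereg fell by 0.69, 0.26 and 0.19, so receptors and ligands called in this family differed in direction. The call of Nrg1 is lost without overexpression library 3. The insulin-like growth factor axis was split, with 4 higher and 4 lower of 9 tested genes. The binding protein Igfbp6 rose from 71.0 to 99.2 FPKM to 112 to 124 FPKM, and the receptor Igf1r fell from 4.18 to 5.23 FPKM to 3.21 to 3.38 FPKM. Of 3 tested complement genes 2 were higher and 1 lower, or 0 lower when certain single libraries were left out. Masp1, a serine protease of the lectin pathway, rose from 2.07, 2.19, 2.45 and 2.51 FPKM to 12.1, 14.2 and 13.1 FPKM. Clu, the chaperone-like clusterin, rose from a mean of 7.98 to 15.1 FPKM.

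Subunits and feedback genes of the NF-kB route, an inflammatory signalling pathway, were higher in 10 of 24 cases and lower in 5. When single libraries were left out 7 to 9 were higher. Of the lower calls 2 were left without overexpression library 1 or 3, and 3 without wild-type library 2 or 4. Tnfaip3, the feedback inhibitor A20, stood at 1.53, 1.46, 1.56 and 1.42 FPKM in wild type and at 2.91, 2.99 and 2.90 FPKM in overexpressing cells. The inhibitor Nfkbie rose by 0.57 and the antiapoptotic Birc3 by 0.49, while the subunit Rela fell by 0.13, a call that is lost without wild-type library 2 or 4 or any single overexpression library. Targets of p53 showed no common direction, with 8 of 27 higher and 9 lower, and 5 were higher without wild-type library 2 or without overexpression library 1. The atypical cyclin Ccng1 and the death receptor Tnfrsf10b rose by 0.43 and 0.48, and the nuclease Aen fell from 32.7 to 35.5 FPKM to 24.1 to 25.6 FPKM. Among 19 tested genes of the smooth-muscle type actin cytoskeleton 7 were higher and 2 lower. Vcl, the focal adhesion protein vinculin, stood at 53.1, 51.5, 47.4 and 49.8 FPKM in wild type and at 92.7, 93.7 and 88.7 FPKM in overexpressing cells (log2 difference 0.85, SE 0.04, limma adjusted p = 1.82e-07). The tropomyosin Tpm1 rose from 358 to 370 FPKM to 613 to 625 FPKM, and the adhesion protein Zyx fell by 0.36.

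Ssbp4 acts with Ldb and LIM proteins, and all 12 tested genes of that group were called, 5 higher, Ssbp4 included, and 7 lower. Its paralog Ssbp2 fell from a mean of 14.4 to 6.59 FPKM, a log2 difference of -1.03. The LIM-only gene Lmo1 fell from 7.76 to 5.14 FPKM, and Lmo4 and the LIM homeobox gene Isl1 rose from 34.1 and 1.12 FPKM to 42.03 and 2.72 FPKM. Of the 7 lower calls 4 were left without overexpression library 1 and 3 without overexpression library 3. Ldb1 was called lower, at 47.0 and 41.8 FPKM, but not without overexpression library 2 or 3.

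The 15 widest differences in each direction, among called genes with non-overlapping groups and a mean of at least 5 FPKM in the higher group, hold several that belong to no programme above. Asb4, a substrate receptor of a ubiquitin ligase, rose from 0.460 to 0.656 FPKM to 12.38 to 14.04 FPKM. Asb4 and Prl2c3, given below, were the 2 extremes of the list of imprinted and placental-type genes. That list was split, with 3 of 11 tested genes higher and 3 lower. The growth hormone receptor Ghr stood at 5.07, 5.44, 4.53 and 4.87 FPKM in wild type and at 34.2, 37.9 and 36.5 FPKM in overexpressing cells. H19, an imprinted noncoding RNA, rose from 4.92 to 5.67 FPKM to 33.5 to 38.5 FPKM, and the water channel Aqp1 rose from 1.66 to 2.26 FPKM to 15.1 to 15.3 FPKM. The alpha globin gene Hba-a1 was at 0 to 0.371 FPKM in wild type and 5.54 to 7.01 FPKM in overexpressing cells, and its near-identical copy Hba-a2 was at 0 to 0.302 FPKM and 1.86 to 2.24 FPKM, so reads could be split between them. The beta globin gene Hbb-bs and Alas2, the erythroid enzyme of heme synthesis, both named after their values were seen, were listed at 0 in all 7 libraries.

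**Figure D4:**
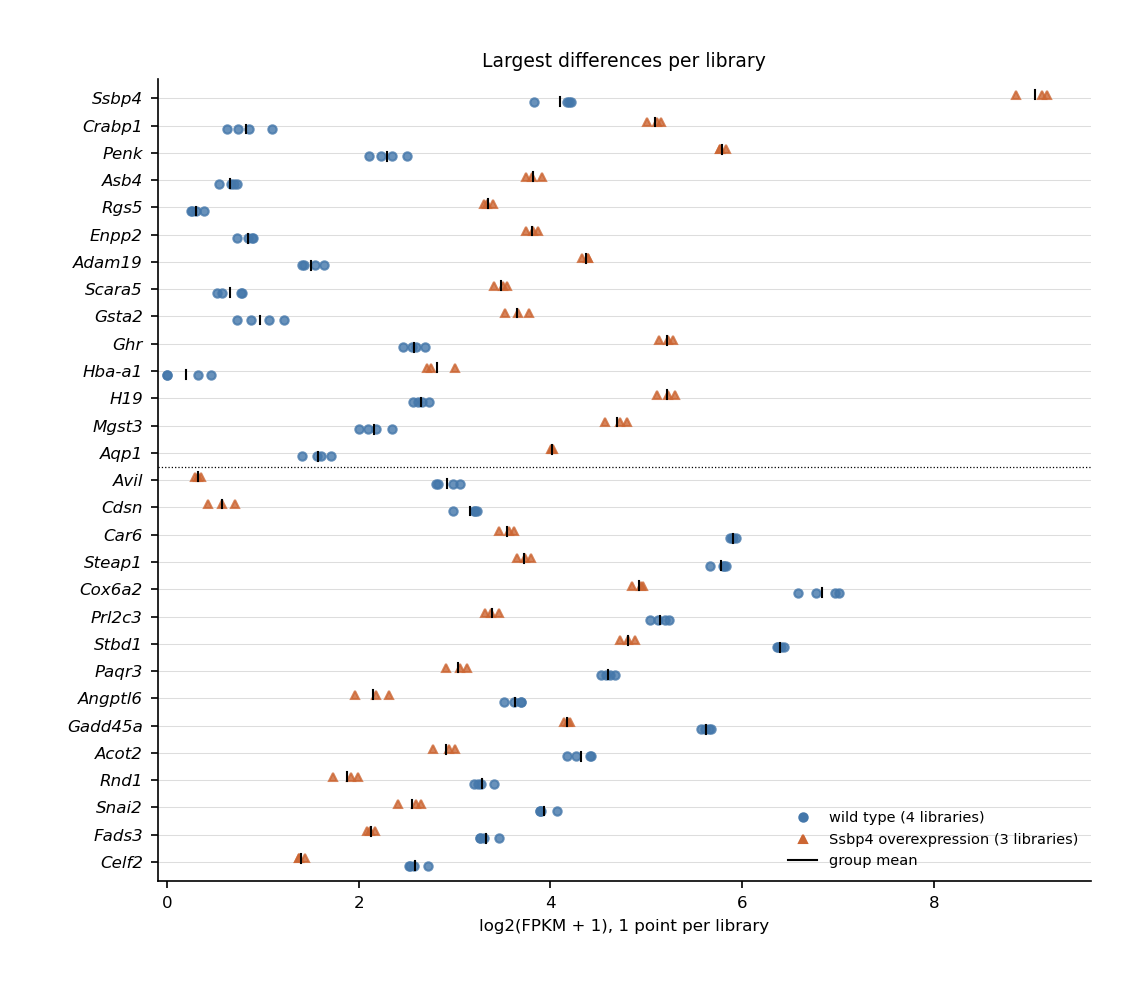
Level per library, as log2(FPKM + 1), of genes with the widest higher (above the dotted line) and lower (below it) differences; circles are the 4 wild-type and triangles the 3 Ssbp4-overexpressing libraries, and bars are group means. Genes were taken from called genes whose groups do not overlap; Crabp1 differs by 4.26 and Avil by -2.60.

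On the lower side Avil, the actin-binding protein advillin, stood at 6.92, 7.35, 6.02 and 6.10 FPKM in wild type and at 0.282, 0.246 and 0.221 FPKM in overexpressing cells (log2 difference -2.60, SE 0.08, limma adjusted p = 6.07e-09). Car6, a secreted carbonic anhydrase, fell from 57.7, 58.3, 60.1 and 59.0 FPKM to 10.9, 10.0 and 11.3 FPKM. Prl2c3, a prolactin-family gene with close copies, fell from 32.0 to 36.6 FPKM to 8.99 to 10.0 FPKM, and its relative Prl2c2 fell from 157 to 171 FPKM to 109 to 114 FPKM. Gadd45a, a growth arrest gene known as a p53 and stress target, fell from 46.4 to 50.1 FPKM to 16.6 to 17.4 FPKM. Stbd1, which tethers glycogen to membranes, and Paqr3, a Golgi protein, fell by 1.59 and 1.57, and the acyl-CoA thioesterase Acot2 fell by 1.41.

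Counting genes with a mean of at least 2 FPKM in 1 group and at most 0.5 FPKM in every library of the other, 19 were on in overexpressing cells and 2, Avil and Krt18, were on in wild type. Outside the interferon-inducible genes, those on in overexpressing cells included Rgs5, Calcb and Lum, given above. The angiotensin receptor Agtr2 was at 0.028 to 0.074 FPKM in wild type and 2.28 to 2.78 FPKM in overexpressing cells. The junction gene Cgnl1 was at 0.286 to 0.358 FPKM and 3.33 to 3.79 FPKM, and the focal adhesion gene Tns1 was at 0.239 to 0.292 FPKM and 2.30 to 2.92 FPKM.

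Antioxidant genes were called in both directions. Of 32 tested NRF2, glutathione and thioredoxin genes 12 were higher (37.5%) and 13 lower (40.6%). The glutathione transferases Gsta2, which has close copies, and Mgst3 rose from 0.653 to 1.33 FPKM and 3.01 to 4.11 FPKM to 10.6 to 12.7 FPKM and 22.7 to 26.8 FPKM. The quinone reductase Nqo1 rose from 3.45 to 4.32 FPKM to 7.06 to 7.66 FPKM. The glutathione synthesis enzymes Gclc and Gss fell, Gclc from 20.5 to 21.9 FPKM to 13.6 to 14.6 FPKM and Gss from a mean of 25.7 to 18.6 FPKM. The thioredoxin reductase Txnrd1 fell from 126 to 132 FPKM to 89.2 to 90.4 FPKM. Nfe2l2, which encodes NRF2, was not called.

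Iron handling genes were higher in 7 of 15 cases and lower in 5. The ferritin receptor Scara5 stood at 0.432, 0.717, 0.710 and 0.484 FPKM in wild type and at 10.7, 9.66 and 10.3 FPKM in overexpressing cells. The metalloreductases Steap1 and Steap2 fell from 49.8 to 55.8 FPKM and 24.9 to 27.5 FPKM to 11.6 to 12.9 FPKM and 12.68 to 13.005 FPKM, whereas their relative Steap3 rose from a mean of 12.6 to 21.1 FPKM. The family thus changed in both directions.

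Proliferation genes stayed close to the background. Of 53 tested DNA replication and mitosis genes 14 were higher (26.4%) and 16 lower (30.2%), and 9 were higher without overexpression library 1. The differences were small: the cyclin Ccne1 fell by 0.31 and the helicase subunit Mcm7 by 0.26, and Ccnb2 rose by 0.24. Cell cycle inhibitors and D cyclins were higher in 9 of 24 cases (37.5%) and lower in 4. The inhibitors Cdkn2b, Cdkn2d and Cdkn1b and the atypical cyclin Ccng2 rose by 0.71, 0.64, 0.59 and 1.01, and Ccnd1, Ccnd2 and Cdk4 fell by 0.24, 0.33 and 0.28. Hox genes, which mark position along the body axis, had few calls, 2 higher and 2 lower of 16. The abundant Hoxa7, Hoxa9 and Hoxa10 were not called, and Hoxa7 was called higher without wild-type library 3.

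Differences were not spread evenly over chromosomes. A chromosome was found for 10530 of the tested genes by symbol. The median difference was -0.12 on chromosomes 10 and 16, where 42.5% and 41.5% of tested genes were lower, and -0.11 on chromosome 2, where 39.5% were lower. Chromosome 5 followed at -0.07, with 31.2% lower. On the X chromosome the median was 0.11 and 39.3% of tested genes were higher. Each of the 3 overexpressing libraries showed these shifts, whereas wild-type libraries stayed within 0.032 of 0 on those 5 chromosomes. Every library was then centred on its own chromosome medians, a setting added after seeing the data. In that setting 2524 tested genes were higher and 2454 lower. Of stress response targets 25 rather than 24 were lower, and of ribosome biogenesis genes 57 rather than 55. Aminoacyl-tRNA synthetase genes were lower in 17 rather than 15 cases. Other counts fell: 47 rather than 52 cytosolic ribosomal protein genes and 10 rather than 16 DNA replication and mitosis genes were lower. The part of these chromosome shifts in the other results was not tested.

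**Figure D5:**
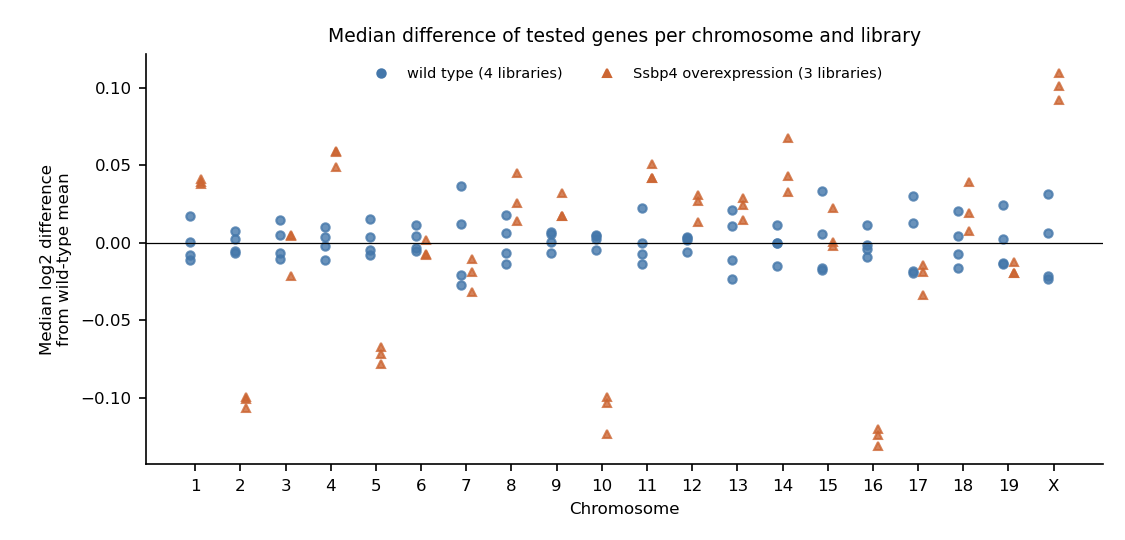
Median log2(FPKM + 1) difference of tested genes from the wild-type mean, by chromosome, with 1 point per library (circles wild type, triangles Ssbp4 overexpression). The 3 triangles lie together and below 0 on chromosomes 2, 5, 10 and 16 and above 0 on X.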

How the data were processed

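Polyadenylated RNA of MC38 cells was sequenced with a stranded kit, per the labels' protocols. The authors deposited FPKM per gene symbol, and the submitters' processing notes name GRCm39 and DESeq2. Not given in the sources used here are the aligner, the counter, its strand setting and the annotation. All 7 columns were matched to samples by label. The test was limma 3.58.1 (R 4.3.3) with a mean-variance trend on log2(FPKM + 1), for genes with a mean of at least 1 FPKM. Benjamini-Hochberg adjustment ran over all of them. On the log2(FPKM + 1) scale the change of a low gene is understated. The fit was tested on simulated data. Depth was estimated from the spacing of low values, of which 82.3 to 86.2% lay within 0.1 of a whole number of fragments. Whole reads were thus not recovered for nearly all genes, and no count model was used. Lengths and chromosomes came from GENCODE on GRCm38, by symbol.

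The 66 programme and family lists and 6 marker lists hold 2088 genes, of which 2084 matched, 32 by another symbol. Members and lists were chosen with earlier results of these data known, and they are described by counts, without a set test. The rule for named genes took Ssbp4. It took the 15 highest and 15 lowest differences among called genes with groups that do not overlap and a higher mean of at least 5 FPKM, without predicted or clone names. It took up to 20 genes with a mean of at least 2 FPKM in 1 group and at most 0.5 FPKM in every library of the other. From each list it allowed any member where at most 15 were tested, and otherwise up to 4 called members each way and 3 abundant ones not called. Interferon and sterol genes, and some other genes the rule allows, are not reported here. Members with the searched motif, and genes said to be named after their values were seen, are additions. Alternatives changed the pseudocount (0.1), the filter (0.1, 5 or none), the scaling, the variance model, library weights and the replicate block, and left out each library. Plots used Python 3.11.15 and matplotlib 3.10.9.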

Additional observations from a re-analysis of the deposited data

Results flagged for a closer look

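The 298 genes examined were those named in the text and a gene with the symbol F10. In 11 of them 1 of the 4 wild-type libraries stood apart from the other 3 by a gap above Dixon's 95% critical value. Chance gives such a gap in about 1 in 20 groups of 4 if values are normal and independent. The 11 of 298 lie below that rate, but the genes share the same 4 libraries, so the rate is only a guide. The 298 also hold genes listed at 0 in all 4 wild-type libraries, such as Mlana and Cdx2, which could show no gap. The group of 3 overexpressing libraries was not tested. Wild-type library 1 was the one apart in 8 genes. Ssbp4 was at 13.24 FPKM there against 17.0 to 17.6 FPKM in the others, Myc at 162.8 against 186 to 191 FPKM, and Cdsn at 6.912 against 8.23 to 8.38 FPKM. In the same library Pdk1 was at 25.27 against 23.9 to 24.1 FPKM, Rpl35a at 1229 against 1122 to 1131 FPKM, and Slc7a11 at 8.253 against 6.90 to 7.09 FPKM. The low genes Tns1, at 0.2394 against 0.291 to 0.292 FPKM, and Fap, at 0.0246 FPKM against 0 in the others, completed the 8. Wild-type library 3 was apart in Cav1, at 280.8 against 268 to 270.1 FPKM, in Sema7a, at 3.322 against 4.04 to 4.18 FPKM, and in Snai2, at 15.73 against 13.8 to 13.9 FPKM. In each of these genes that were called, the overexpressing libraries lay outside the range of all 4 wild-type libraries.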

How the results depend on the processing

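The count of called genes, 5107, was 3906 to 5463 over the alternatives that kept all libraries and 4307 to 5109 when single libraries were left out. The count of genes changed at least 2-fold, 220, was 119 with a mean of at least 5 FPKM required and 327 with a pseudocount of 0.1, and 213 to 230 when single libraries were left out. Ssbp4 stayed between 4.86 and 5.05 on the log2 scale. Of 237 named called genes 186 were tested and called in the same direction under every alternative, 40 were below the filter in at least 1, all of them with a mean of 5 FPKM required, and 11 lost the call. When single libraries were left out 222 kept the call, 6 were below the filter in at least 1 fit, and 9 lost it. Atf6, Dars, Ddx10, Ereg, Ldb1, Nrg1, Rela, Rpl36a, Rpl37a, Slc7a11 and Snai1 lost their call under some alternative, Snai1 without a filter (limma adjusted p = 0.0565), and Rpl36a was -0.00064 after centring by chromosome, a setting added after seeing the data. Cavin2, Cpe, Eif4ebp1, Fn1, G6pdx, Gjc1, Hars, Hoxa7 and Nop10 were called under at least 1 alternative. The cause was not tested. With the replicate number as a block 3906 genes were called, 20 rather than 52 ribosomal protein genes were lower, and 21 rather than 32 mitochondrial ones. Same-numbered libraries did not deviate together (r = -0.29, -0.07 and -0.07), and libraries with different numbers gave r of -0.20 to 0.26. With so few pairs these values cannot show whether the numbers pair samples, and the labels do not say. FPKM without counts, 7 libraries and the lack of an empty-vector group limit what these values can show.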

Other observations

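Chemokine and cytokine genes, which are secreted signals between cells, were higher in 9 of 12 tested cases. Ccl2, a monocyte attractant, stood at 19.6, 18.5, 18.6 and 16.4 FPKM in wild type and at 49.2, 46.2 and 51.5 FPKM in overexpressing cells. The alarmin Il33 rose from a mean of 0.709 to 2.61 FPKM, Ccl5 rose from 1.95 to 9.40 FPKM, and Lif rose from 4.18 to 6.57 FPKM. Tspan7, a tetraspanin of the plasma membrane, rose from 1.20 to 7.42 FPKM. The 4 tested genes on the list of cancer-testis and germline genes, all of X-linked families, were higher. The clearest was Maged1, a MAGE-family gene already abundant in wild type, at 113 to 126 FPKM there and 160 to 165 FPKM in overexpressing cells. Tested genes of the X chromosome as a whole had a median difference of 0.11, and 3 of these 4 were higher after centring by chromosome. Xlr3a, which has near-identical copies, rose from 1.22 to 3.69 FPKM.

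Transcription factor families held calls in both directions. Of 29 tested Sox, Fox, Gata and Klf genes 8 were higher and 8 lower, or 55.2% called against 47.5% of all tested genes. Foxp2 rose from 0.387 to 0.688 FPKM to 3.11 to 3.68 FPKM, and Klf4 rose from 28.9 to 32.4 FPKM to 48.9 to 54.2 FPKM. The ETS factor Etv1 rose from a mean of 3.50 to 8.25 FPKM, whereas the immediate early genes Fosl1 and Egr1 fell from 179 and 31.3 FPKM to 134 and 24.0 FPKM. The clock repressor Nfil3 fell from 14.6 to 15.8 FPKM to 10.4 FPKM. Among 37 DNA and histone methylation enzymes 13 were lower and 4 higher, or 8 lower without overexpression library 3. Kdm6b, a histone demethylase, fell from 10.0 to 12.6 FPKM to 6.17 to 6.96 FPKM, and the DNA methyltransferase Dnmt1 was not called. Plk2, a kinase on the p53 target list, fell from 148 to 151 FPKM to 89.8 to 92.9 FPKM.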
